A study of Mus musculus with 2 samples.

Results

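Of 32285 gene rows, 7 genes of adenosine handling were followed: Ada, Adk, Nt5e, Entpd1, Adora2a, Adora2b and Slc29a1. They were chosen by their symbols as a pathway around Ada, with the Ada ratio between control and B16-F10 and the other levels in these libraries already known, so their values are given as a description, with no test. Single-cell RNA sequencing was run on Pecam1+ Ptprc- cells sorted from the lungs of wild-type C57BL/6 mice, 6 h after injection through the tail vein of PBS (control) or of 400000 B16-F10 cells, a mouse skin melanoma line, in 100 µl. The melanoma cells carried a green CellTracker dye and were collected along with the endothelial cells (ECs) of the injected mice. Tissue of 2 mice per treatment, as the labels give it, was pooled into 1 library per group, and the study's methods give another number of mice. With 1 library per group no test between groups was possible. An effect of the melanoma cells and a difference between 2 library preparations therefore cannot be told apart, and every interval below is a 95% interval that covers counting error only.

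Extracellular adenosine is made from released ATP by enzymes on the cell surface. Entpd1 (CD39) removes phosphates from ATP and ADP, and Nt5e (CD73) turns AMP into adenosine. Adenosine acts on G protein-coupled receptors such as Adora2a and Adora2b, or enters cells through the equilibrative transporter Slc29a1, where Adk returns it to AMP and Ada converts it to inosine. In the vessel wall adenosine is known for dampening inflammation, platelet activation and leakage.

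After filtering, 7830 control and 7767 B16-F10 cells remained, with a median of 7510 and 8557 unique molecular identifiers (UMIs, counted RNA molecules) per cell, and 18 barcodes occurred in both libraries. Clusters were named from fixed markers as general capillary (gCap)-like, with 4035 control and 3840 B16-F10 cells, aerocyte capillary (aCap)-like, with 1449 and 976, artery-like, with 179 and 130, vein-like, with 320 and 295, and lymphatic (LEC)-like, with 58 and 51. The sum of 8 endothelial markers was 11765 CPM (UMIs of a gene or list per 1000000 UMIs of the sum) in control gCap-like cells and 10899 CPM in B16-F10 gCap-like cells. Endothelial clusters led by Esm1 (869 and 687 cells), Csf2 (6 and 308) and Fabp4 (173 and 30) had no name from the markers. In the Esm1-led cluster 7 of 8 gCap markers stood above the other clusters by the fold set for naming. Its 10 leading genes, however, held 0 gCap markers and an artery marker, Efnb2. The 8 gCap markers summed to 7403 CPM in control and 6826 CPM in B16-F10 in this cluster. The largest share of gCap-like cells lay in different clusters in the 2 libraries, Hey1-led in control (38.1%) and Chrm2-led in B16-F10 (30.8%). The Lalba-led cluster made up 2.80% of gCap-like cells in control and 28.2% in B16-F10. It took the gCap-like name with 5 of 8 gCap markers above the fold set for naming. Its 10 leading genes also held 0 gCap markers. They included Ada, as well as Pim3, Tmem252, Adamts9 and Scarb1, which the study names as markers of reactive capillary ECs. In the aCap-like class the Tmeff2-led cluster made up 33.9% of control and 6.86% of B16-F10 cells. Its median was 4599.5 UMIs per cell, against 11222 in the Ccdc184-led cluster that held the rest. Ratios in both capillary classes thus compare unlike mixes of clusters, and the part of this was not tested. UMIs were summed per library and class and expressed as CPM.

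Among the members, Ada differed most between the libraries in gCap-like ECs, where it was 2.68-fold higher in B16-F10, and Entpd1 was 1.56-fold higher there. Adk, Adora2a and Slc29a1 lay within 1.5-fold of control in those cells. Nt5e was found mainly in vein-like ECs and was lower there in B16-F10, and Adora2b was almost undetected in ECs. With at least 50 UMIs over both sums required, 5 of 7 members were measured in gCap-like ECs, of which 1 (Ada) was at least 2-fold higher and 0 at least 2-fold lower. Ada fell short of 2-fold without the Lalba-led cluster (log2 ratio 0.73) and at doubled clustering resolution (0.88). Of all 12972 genes so measured, 3.18% were at least 2-fold higher and 2.37% at least 2-fold lower. In aCap-like ECs 0 of 3 measured members passed 2-fold in either direction, against 2.18% of all genes higher and 2.07% lower. In artery-like ECs the count was again 0 of 3, against 1.72% higher and 1.46% lower. Of 5 measured members in vein-like ECs, 1 (Nt5e) was at least 2-fold lower and 0 higher, against 1.75% of all genes higher and 1.19% lower. In LEC-like ECs 1 of 2 (Adk) was at least 2-fold lower and 0 higher, against 1.53% higher and 2.01% lower. Since these ratios were known when the genes were chosen, nothing is read from these counts.

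**Figure D1:**
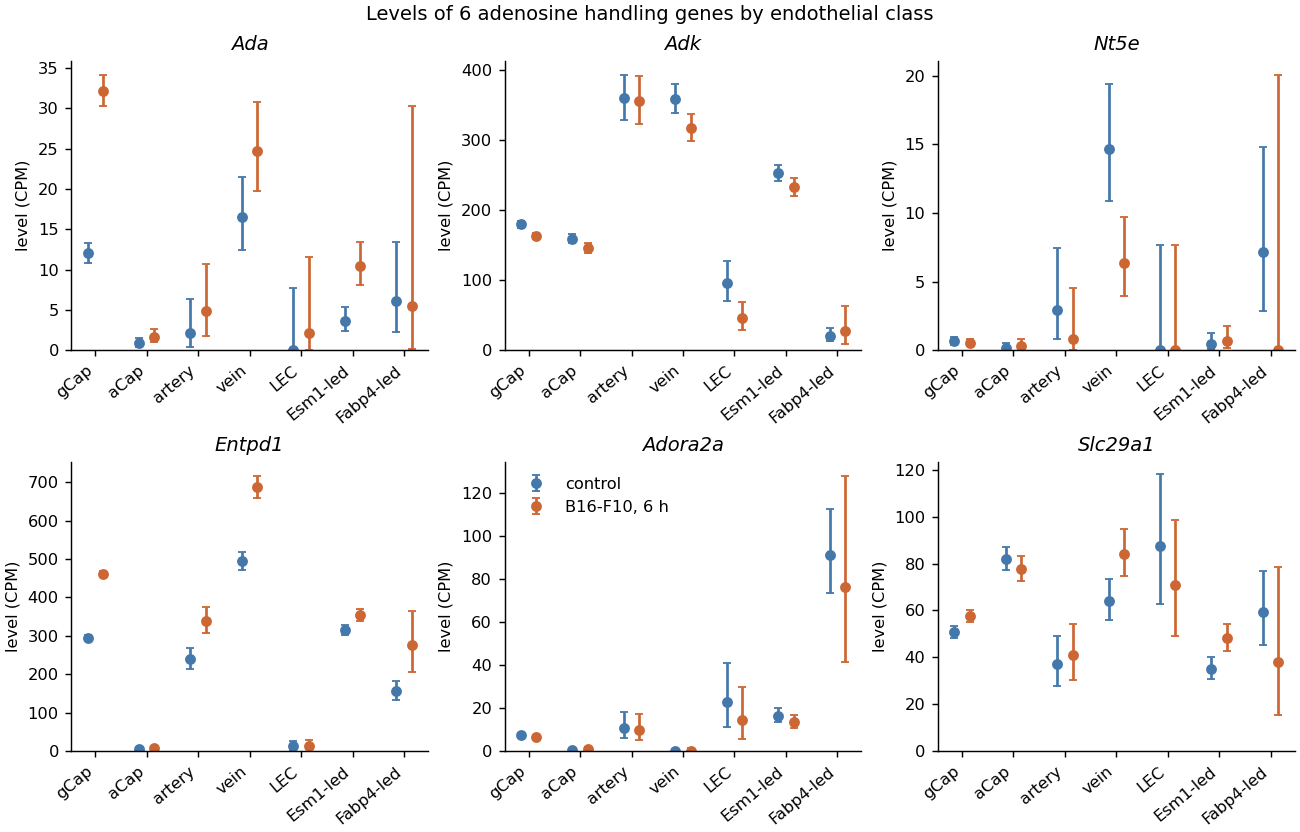
Level in CPM of 6 member genes by endothelial class in the control and B16-F10 libraries, 1 library per group, with 95% Poisson intervals that cover counting error only. Ada stands at 12.0 CPM in control and 32.2 CPM in B16-F10 gCap-like ECs, and at 16.5 and 24.8 CPM in vein-like ECs.

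Entpd1, the surface enzyme that acts first, lies on the forward strand of chromosome 19 (GRCm38, chr19:40612366-40741602). In gCap-like ECs it had 8833 control and 15555 B16-F10 UMIs, or 296 and 462 CPM, a log2 ratio of 0.64 (0.61 to 0.68). Vein-like ECs had 495 CPM in control and 687 CPM in B16-F10, a log2 ratio of 0.47 (0.38 to 0.57). In artery-like ECs the values were 240 and 340 CPM (0.50, 0.29 to 0.72). The gene was thus higher in B16-F10, beyond counting error, in each of these 3 classes. The Esm1-led cluster had the smaller ratio of 0.17 (0.08 to 0.26), with 315 CPM in control and 355 CPM in B16-F10. The ratio in gCap-like ECs exceeded that in the Esm1-led cluster by 0.47 (0.38 to 0.57) and that in vein-like ECs by 0.17 (0.07 to 0.27). From the ratio in artery-like ECs it was not apart, with a difference of 0.14 (-0.08 to 0.36).

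In aCap-like ECs, Entpd1 had only 61 control and 100 B16-F10 UMIs, 4.65 and 9.16 CPM, a log2 ratio of 0.98 (0.50 to 1.46). Its interval covered 0 with cells holding leukocyte, platelet, mural or melanoma markers left out (0.43, -0.39 to 1.23) and with cells thinned to 2000 UMIs (0.56, -0.67 to 1.79). Free RNA, estimated from near-empty barcodes, would by itself supply 1.55 and 3.19 CPM of Entpd1 in these cells. LEC-like ECs had 6 and 7 UMIs. Within the gCap-like class, Entpd1 was higher in B16-F10 in 5 of 5 clusters, with log2 ratios from 0.27 to 0.62. After each cell was thinned to 2000 UMIs, 40.7% of control and 53.7% of B16-F10 gCap-like cells had an Entpd1 UMI, 12.97 points more (10.8 to 15.2). Other genes on the same strand overlap Entpd1 (Gm16027, Gm8783 and AC166063.1), so the split of reads among them is uncertain.

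Nt5e, which makes adenosine from AMP at the surface, lies on the forward strand at chr9:88327197-88372092. It had 49 control and 21 B16-F10 UMIs in vein-like ECs, 14.7 CPM (10.9 to 19.4) and 6.34 CPM (3.93 to 9.70). This is a log2 ratio of -1.21 (-2.02 to -0.45), lower in B16-F10 beyond counting error. It was not recomputed under other processing settings. The share of vein-like cells with an Nt5e UMI, not thinned, was 9.06% in control and 5.76% in B16-F10, a difference of -3.30 points (-7.53 to 0.93) that counting error covers. Markers of mural cells, which border on veins, summed to 99.5 CPM in control and 71.3 CPM in B16-F10 vein-like ECs, and fibroblast markers to 44.04 and 26.88 CPM. The Scgb1a1-led cluster, with epithelial and fibroblast markers, had 8 and 6 Nt5e UMIs, 10.3 CPM in control, and the part of these cells in the Nt5e value was not tested. Elsewhere in the vessels Nt5e was scarce, with 19 and 17 UMIs in gCap-like, 2 and 3 in aCap-like, 4 and 1 in artery-like and 0 and 0 in LEC-like ECs. The Fabp4-led cluster had 7 control UMIs, 7.18 CPM, and 0 in B16-F10. The gCap-like log2 ratio of -0.33 (-1.37 to 0.69) was not apart from that in vein-like ECs, by a difference of 0.88 (-0.41 to 2.18). Outside the endothelium, the 19 neutrophil-like cells of the B16-F10 library had 20 Nt5e UMIs, 147 CPM, and the 3 in control had 0.

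Adora2a, the receptor that raises cyclic AMP at low adenosine, lies on the forward strand at chr10:75316877-75334784. Among ECs its level was highest in the Fabp4-led cluster, at 91.2 CPM in control and 76.2 CPM in B16-F10, a log2 ratio of -0.26 from 89 and 14 UMIs. In gCap-like ECs 224 and 226 UMIs gave 7.49 and 6.71 CPM, a log2 ratio of -0.16 (-0.43 to 0.11). The Esm1-led cluster had 16.5 and 13.6 CPM (-0.29, -0.72 to 0.14). No difference beyond counting error was therefore seen in either of the last 2 groups, nor in any gCap-like cluster, where the log2 ratios ran from -0.10 to 0.13. In gCap-like ECs it was lower beyond counting error without doublet removal (-0.23, -0.45 to -0.0048) and with the list genes kept in clustering (-0.27, -0.50 to -0.03). Over all ECs the ratio was -0.28 (-0.48 to -0.09), a sum in which the Fabp4-led cluster had 173 cells in control and 30 in B16-F10. Vein-like ECs had 0 control UMIs and 1 B16-F10 UMI, artery-like ECs 15 and 12, and LEC-like ECs 11 and 7.

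Adora2b, the receptor that needs more adenosine to respond, lies on the forward strand at chr11:62248984-62266453. It had 4 UMIs in all control ECs and 0 in all B16-F10 ECs, where a count of 0 allows up to 0.0628 CPM. Its UMIs lay elsewhere: 10 control and 11 B16-F10 UMIs (12.9 and 9.29 CPM) in the Scgb1a1-led cluster of mixed epithelial and fibroblast markers, and 8 in B16-F10 macrophage/monocyte-like cells. No ratio was formed in ECs at this depth.

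Slc29a1, the transporter that moves adenosine across the plasma membrane in either direction, lies on the reverse strand at chr17:45585200-45599606. It was detected in all 5 vessel classes. In vein-like ECs it had 64.1 CPM in control and 84.3 CPM in B16-F10, a log2 ratio of 0.39 (0.13 to 0.66). In gCap-like ECs the values were 50.9 and 57.5 CPM (0.18, 0.08 to 0.27), and in the Esm1-led cluster 35.3 and 48.1 CPM (0.45, 0.20 to 0.70). These 3 groups were higher in B16-F10 beyond counting error, but in gCap-like ECs the interval covered 0 with cells holding leukocyte, platelet, mural or melanoma markers left out (0.12, -0.05 to 0.28). In aCap-like ECs, at 82.1 and 77.9 CPM, the log2 ratio was -0.08 (-0.21 to 0.06), which was 0.25 (0.09 to 0.42) below that of gCap-like ECs. The cluster mix of both classes differed between the libraries, and its part in this was not tested. LEC-like ECs had 87.3 and 70.6 CPM and artery-like ECs 37.2 and 41.0 CPM, both within counting error. Gm17080 overlaps Slc29a1 on the other strand.

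Adk, the kinase that salvages adenosine to AMP, lies on the forward strand at chr14:21052574-21448569 and was measured in every class. In gCap-like ECs 5362 control and 5483 B16-F10 UMIs gave 179 and 163 CPM, a log2 ratio of -0.14 (-0.20 to -0.09). Vein-like ECs had 358 and 317 CPM (-0.17, -0.30 to -0.05) and aCap-like ECs 159 and 145 CPM (-0.13, -0.22 to -0.03). In these classes the level was slightly lower in B16-F10. The interval covered 0 with other-marker cells left out, both in gCap-like ECs (-0.07, -0.16 to 0.02) and in aCap-like ECs (-0.03, -0.18 to 0.12), and with cells thinned to 2000 UMIs in gCap-like ECs (-0.05, -0.16 to 0.06) and aCap-like ECs (-0.15, -0.36 to 0.07). Artery-like ECs had 360 and 356 CPM (-0.02, -0.21 to 0.17). LEC-like ECs had 46 and 22 UMIs, 95.6 and 45.7 CPM, a log2 ratio of -1.07 (-1.87 to -0.30). This exceeded the gCap-like difference, by 0.92 (0.16 to 1.73), on 58 and 51 cells. In gCap-like ECs the small difference did not have 1 direction, since the Hey1-led cluster was higher in B16-F10 by 0.42 and 3 of 5 clusters were lower, and with clustering at doubled resolution the class gave a log2 ratio of 0.01. Gm26372 overlaps Adk on the same strand.

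**Figure D2:**
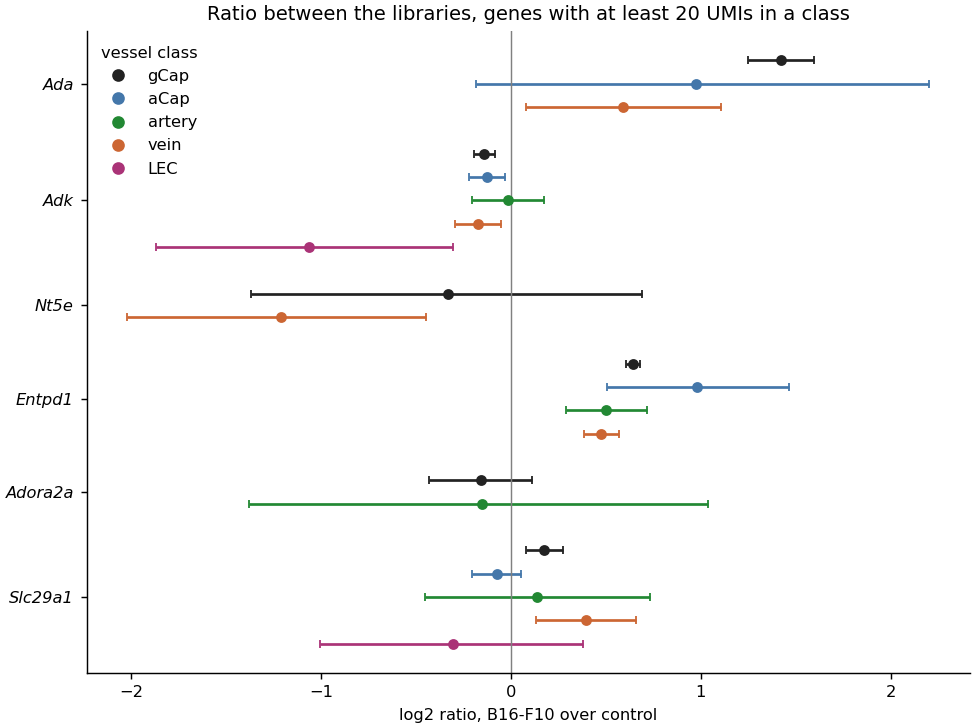
Log2 ratio of B16-F10 to control CPM for each member gene and endothelial class with at least 20 UMIs over both sums, with 95% intervals for counting error only. Entpd1 is to the right of 0 in gCap-like (0.64), vein-like (0.47) and artery-like (0.50) ECs, and Nt5e to the left of 0 in vein-like ECs (-1.21).

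Ada, the deaminase that removes adenosine by turning it into inosine, lies on the reverse strand at chr2:163726584-163750239. It had 359 control and 1084 B16-F10 UMIs in gCap-like ECs. These gave 12.0 CPM (10.8 to 13.3) and 32.2 CPM (30.3 to 34.1), a log2 ratio of 1.42 (1.248 to 1.598) and a rank of 209 among the 12972 genes measured, counted from the highest ratio. The share of gCap-like cells with an Ada UMI was 7.53% in control and 19.7% in B16-F10. After thinning to 2000 UMIs per cell it was 2.39% (95 of 3976 cells) and 5.62% (214 of 3811 cells), a difference of 3.23 points (2.36 to 4.11). At least 2 Ada UMIs, not thinned, were found in 45 control and 225 B16-F10 gCap-like cells, 1.12% and 5.86%.

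In vein-like ECs Ada had 55 and 82 UMIs, 16.5 CPM (12.4 to 21.4) and 24.8 CPM (19.7 to 30.7), a log2 ratio of 0.59 (0.08 to 1.11). The gCap-like ratio exceeded this by 0.83 (0.29 to 1.37). Summed erythroid markers stood at 509 CPM in control and 3419 CPM in B16-F10 vein-like ECs, and their part in the Ada value was not tested. With every cell holding a leukocyte, platelet, mural or melanoma marker left out, 84 and 47 vein-like cells remained, and the log2 ratio was -0.01 (-1.47 to 1.35). With cells thinned to 2000 UMIs it was 0.42 (-0.57 to 1.44). The Esm1-led cluster had 25 and 62 UMIs, 3.63 and 10.5 CPM, a log2 ratio of 1.53 (0.84 to 2.27). The gCap-like ratio less this one was -0.11 (-0.86 to 0.60), so they were not apart.

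Few Ada UMIs came from the other vessels. In aCap-like ECs 11 and 18 UMIs gave 0.839 and 1.65 CPM, a log2 ratio of 0.98 (-0.19 to 2.20), which was not apart from the gCap-like ratio. Artery-like ECs had 3 and 6 UMIs, and LEC-like ECs had 0 and 1, where the control count of 0 allows up to 7.67 CPM. The Csf2-led cluster, almost absent from control, had 60 UMIs in B16-F10, 19.8 CPM. In control the Ada level ran from vein-like over gCap-like, with a log2 difference of 0.46 (0.02 to 0.87), to artery-like ECs, and artery-like, aCap-like and LEC-like ECs were not apart. In B16-F10 gCap-like ECs stood above vein-like ECs by 0.38 (0.05 to 0.72), and vein-like ECs above artery-like ECs by 2.33 (1.15 to 3.82), while artery-like, LEC-like and aCap-like ECs were not apart.

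The 81 melanoma-like cells of the B16-F10 library had 0 Ada UMIs, which allows up to 4.41 CPM. In the control library, given no melanoma cells, 3 cells were named melanoma-like and had 0 Ada UMIs, and their origin was not tested. Macrophage/monocyte-like, T/NK-like and B-like cells of the B16-F10 library had 1, 2 and 2. In gCap-like ECs the summed markers were 37.5 CPM in control and 41.0 CPM in B16-F10 for macrophages and monocytes, 3.08 and 9.97 CPM for neutrophils, 1.10 and 2.97 CPM for T and NK cells, and 3.35 and 6.11 CPM for B cells. Mural markers summed to 25.1 and 40.8 CPM. The 8 melanoma markers summed to 25.9 and 55.4 CPM, with Mlana, Tyrp1, Slc45a2 and Sox10 at 0 in control. With every gCap-like cell holding a leukocyte, platelet, mural or melanoma marker left out, 2162 control and 1223 B16-F10 cells gave an Ada log2 ratio of 1.36 (1.10 to 1.63). Free RNA would supply 0.145 and 0.503 CPM of Ada in gCap-like ECs, against the 12.0 and 32.2 CPM found.

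Within the gCap-like class the Ada level was higher in B16-F10 in 5 of 5 clusters, each beyond counting error. The Lalba-led cluster had the highest level in both libraries, 33.4 CPM in control (28 UMIs) and 62.6 CPM in B16-F10 (639 UMIs), a log2 ratio of 0.91 (0.36 to 1.51). The Hey1-led cluster had 12.26 and 20.03 CPM (0.71, 0.32 to 1.09). The Chrm2-led cluster had 12.5 and 19.3 CPM (0.63, 0.26 to 1.02), and the Ntrk2-led cluster 12.4 and 20.5 CPM (0.73, 0.32 to 1.13). These 3 clusters were close together in each library. The Gm20631-led cluster was lowest, with 7 and 21 UMIs, 2.46 and 10.2 CPM, a log2 ratio of 2.05 (0.77 to 3.53). The Lalba-led cluster held 7.80% (5.25 to 11.1) of gCap-like Ada UMIs in control and 58.9% (56.0 to 61.9) in B16-F10. Without that cluster the gCap-like log2 ratio was 0.73 (0.53 to 0.94), and at doubled clustering resolution, where that cluster was not counted as gCap-like, 0.88 (0.66 to 1.10).

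The study describes reactive capillary (rCap) ECs, and 44 of its rCap marker genes, which it chose on libraries that include these, were summed per cell as a score. None of the 75 genes on the adenosine list below is among them, and the score genes were left out of the clustering. The control gCap-like cells, ordered by this score, were split at whole scores into 4 bins of 1207, 932, 925 and 912 cells, after cells under 2000 UMIs were left out, and from the lowest to the highest bin Ada stood at 8.8, 9.6, 14.4 and 16.4 CPM. Over such bins of 965, 964, 960 and 922 B16-F10 cells it stood at 9.6, 20.9, 29.7 and 68.8 CPM. The top bin was above the bottom bin by 0.90 (0.47 to 1.34) on the log2 scale in control and by 2.84 (2.50 to 3.19) in B16-F10. Ada and the score thus went the same way in both libraries, as a description over cells that share a library. The top bin held 30.6% of the control and 53.2% of the B16-F10 gCap-like Ada UMIs.

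The score itself was higher in B16-F10, so bins with the same score limits in both libraries were added. At scores of 3 to 19, Ada had 9.1 CPM in control and 7.5 CPM in B16-F10, a log2 ratio of -0.29 (-1.14 to 0.47). At 20 to 26 it had 13.2 and 10.4 CPM (-0.34, -0.83 to 0.12). At 27 to 38 it had 15.1 and 20.8 CPM (0.46, 0.08 to 0.86), and at 39 or more 35.1 and 49.9 CPM (0.51, -0.08 to 1.16). Among cells of like score the Ada ratio was therefore smaller than over the whole class, and was beyond counting error in 1 of 4 bins. The highest bin had 98 control and 1804 B16-F10 cells, with median scores of 43 and 56.

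**Figure D3:**
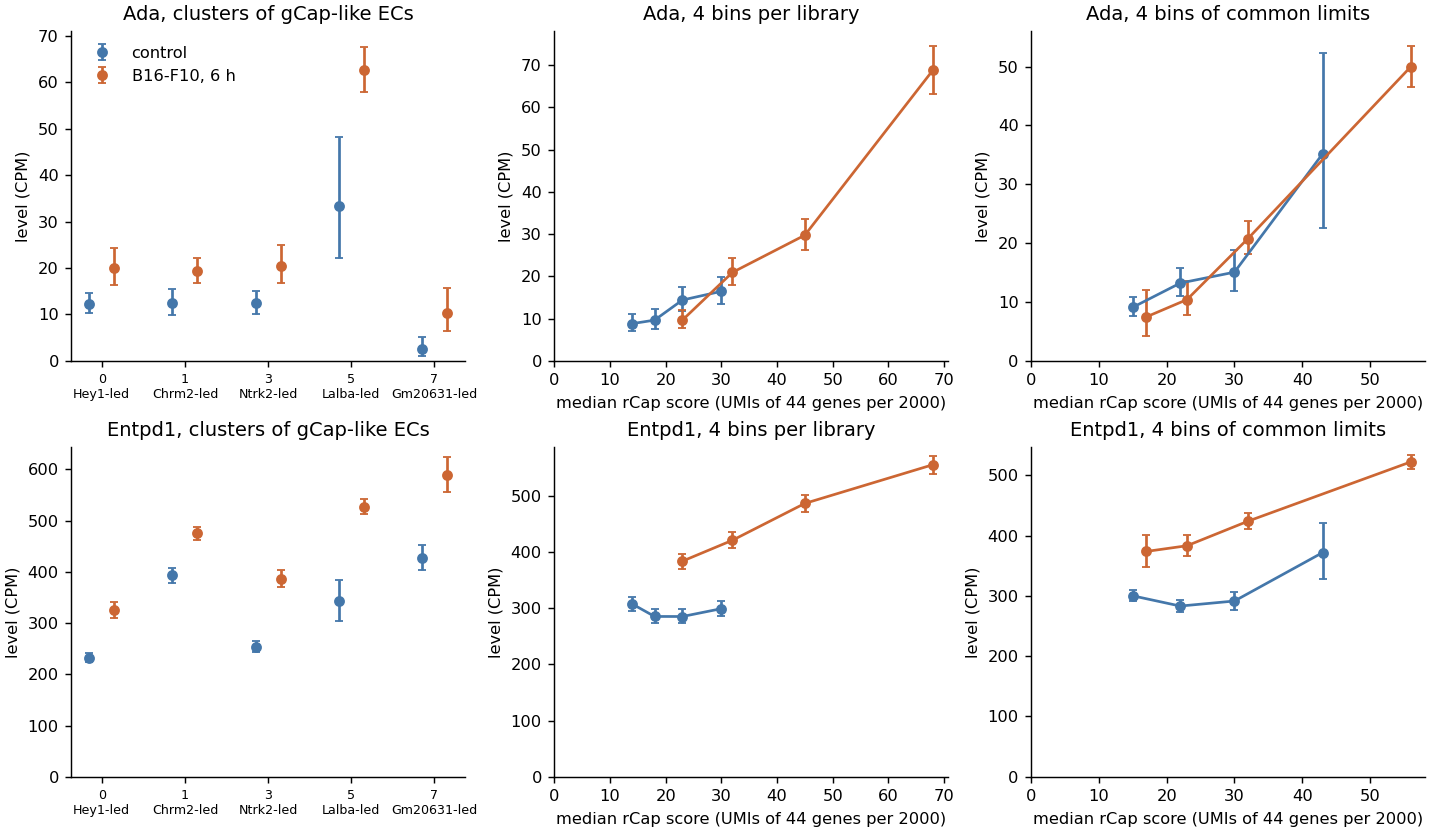
CPM of Ada and Entpd1 in control and B16-F10 gCap-like ECs, by cluster, by 4 bins of the rCap score in each library and by 4 bins with the same score limits in both, with 95% Poisson intervals for counting error only. Ada reaches 68.8 CPM in the top bin of the B16-F10 library against 16.4 CPM in the top control bin, and Entpd1 555 CPM against 299 CPM.

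Entpd1 behaved otherwise over the score. In control it stood at 307, 285, 285 and 299 CPM over the 4 bins, and at 372 CPM in the 98 cells with scores of 39 or more. In B16-F10 it stood at 384, 421, 487 and 555 CPM, the top above the bottom by 0.53 (0.47 to 0.60). In the bins of common score limits its log2 ratios were 0.32, 0.44, 0.54 and 0.49, each beyond counting error. Neutrophil-like cells, 3 in control and 19 in B16-F10, had 1322 and 1091 CPM of Entpd1, and their summed markers in gCap-like ECs were 3.08 and 9.97 CPM. With cells holding leukocyte, platelet, mural or melanoma markers left out, Entpd1 gave 0.57 (0.51 to 0.63) in gCap-like ECs. Slc29a1 went the other way in B16-F10, with 62.0, 64.2, 58.6 and 45.3 CPM (top over bottom -0.45, -0.65 to -0.26), and the same difference in control was 0.01. Adk also went down with the score in B16-F10, with 184, 181, 157 and 128 CPM, and in control stood at 205, 169, 168 and 167 CPM.

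The wider pathway was described with a list of 75 genes, the 7 members included, of which 39 were measured in gCap-like ECs. Their median log2 ratio was 0.02, beside -0.04 over all genes, and 6 were at least 2-fold higher and 0 lower, read beside the 3.18% and 2.37% of all genes. Beyond counting error 16 of the 39 were higher and 14 lower, and 9 were within it, where 27.7% of all genes were higher and 33.8% lower. Without the members 34 remained, with a median of 0.00 and 5 at least 2-fold higher. In aCap-like ECs 32 were measured, with a median of 0.05 beside 0.01 over all genes. Of the 32, 2 were at least 2-fold higher and 0 lower, where 2.18% of all genes were higher and 2.07% lower. In vein-like ECs 32 were measured, with a median of 0.13 beside -0.03 over all genes, 3 at least 2-fold higher and 1, Nt5e, lower, where 1.75% of all genes were higher and 1.19% lower. The median was 0.15 over 20 genes in artery-like ECs, beside 0.02 over all genes, and -0.22 over 10 in LEC-like ECs, beside -0.01.

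The counts by role in gCap-like ECs are to be read beside all genes, of which 27.7% were higher and 33.8% lower beyond counting error. The 4 measured genes of the ectonucleotidase families other than the members, Entpd5, Entpd6, Entpd7 and Enpp2, were lower in B16-F10 gCap-like ECs beyond counting error. The first of these are known to act mainly inside the secretory pathway or other compartments of the cell, and Enpp2 (autotaxin) is known as a lysophospholipase that makes lysophosphatidic acid. The other receptors of adenosine, Adora1 and Adora3, had too few UMIs, and both other measured nucleoside transporters were within counting error. Of the 8 measured genes of AMP and S-adenosylhomocysteine turnover 5 were higher and 3 lower, and of the 8 of purine salvage and breakdown 4 were higher and 1 lower. Among the 5 that passed 2-fold, Gda, the guanine deaminase, had 6.59 CPM in control and 28.3 CPM in B16-F10, a log2 ratio of 2.10 (1.88 to 2.33). Gja1, a gap junction protein whose hemichannels can release ATP, had 2.04 and 12.4 CPM (2.60, 2.21 to 3.01). P2ry2, a receptor for extracellular ATP and UTP, had 1.84 and 6.41 CPM (1.80, 1.37 to 2.26). The adenylate kinase gene Ak1 (1.31, 0.39 to 2.30) and the ATP-gated channel gene P2rx1 (1.14, 0.41 to 1.90) had few UMIs. In aCap-like ECs the genes past 2-fold were Gda, with 24.9 and 54.6 CPM (1.14, 0.94 to 1.33), and Aprt, which salvages adenine, with 1.83 and 6.60 CPM (1.85, 1.17 to 2.58).

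A pair of list genes next to Ada in the pathway were named after their values were seen. Dpp4 (CD26), known in humans as a surface anchor of ADA, had 187 CPM in control and 109 CPM in B16-F10 gCap-like ECs, a log2 ratio of -0.78 (-0.84 to -0.72). It was lower in 5 of 5 gCap-like clusters. Pnp, which breaks down the inosine that Ada makes, had 83.2 and 135 CPM (0.70, 0.63 to 0.77) and was higher in 5 of 5 clusters.

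**Figure D4:**
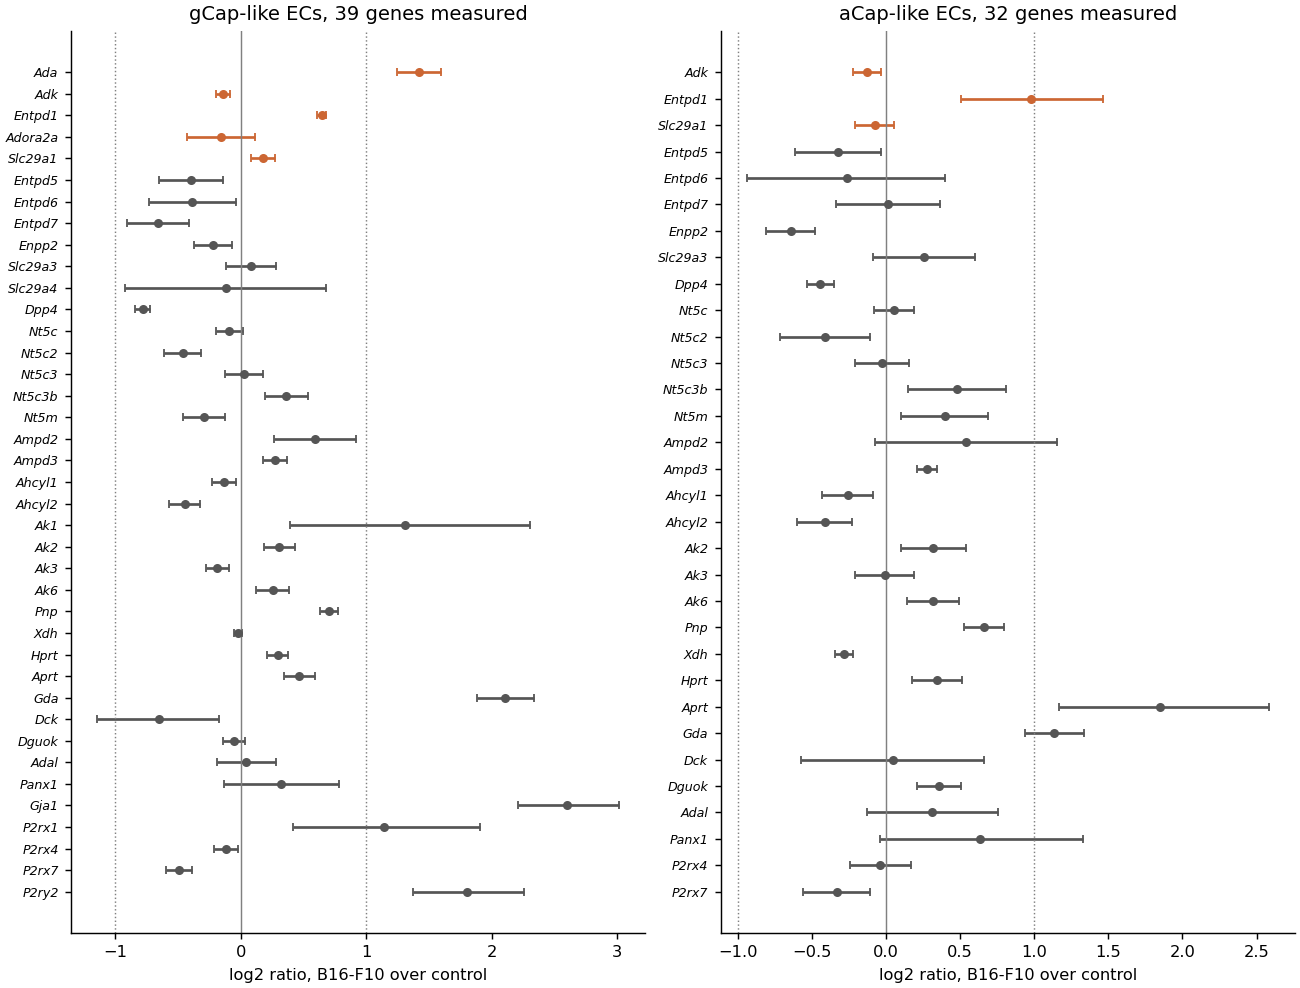
Log2 ratio of B16-F10 to control CPM for each measured gene of the adenosine list, 39 in gCap-like and 32 in aCap-like ECs, with 95% counting intervals, members in orange and dotted lines at 2-fold. In gCap-like ECs 6 genes, Ada among them, lie beyond the upper line and 0 beyond the lower one.

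Over the 10 sums of the 5 vessel classes in both libraries, the genes whose level was most like that of Ada, among 10983 compared, were Rbm18 (Pearson's r 0.98), Kazn (0.94), Xbp1 (0.93), Stx7 (0.93) and Pakap (0.92). Kazn and Xbp1 are on the rCap score list. The 10 sums share 2 libraries and their depth, and these r values describe them only. Ada had 3 and 6 UMIs in the artery-like sums and 0 and 1 in the LEC-like sums, so its levels there are limited by depth.

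The reference holds a promoter window for Ada, 250 bases before to 50 after the start site, on the reverse strand at chr2:163750190-163750489 (RefSeq, GRCm38.p6). The stretch below is shown because it holds, 90 bases before the start site, the STAT-type motif TTCNNNGAA, in capitals. It lies at chr2:163750311-163750339 on the reverse strand and is written 5′ to 3′.
Ada upstream site: gggttcagaaTTCCGGGAAatgcgcgcca
The motif reads the same on both strands. It was chosen after the sequence was seen, occurs in 8.30% of 32851 promoter windows, and among 15 windows of 6 members was found in that of Ada only. The match is a description of letters in this window. The window of Ada also holds the GC box GGGCGG, searched on both strands, as do 35.7% of all windows.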

How the data were processed

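The authors deposited raw UMI counts per gene and barcode, 1 unfiltered matrix per library, totalling 85794655 (control) and 104978816 (B16-F10) UMIs. The file headers name Cell Ranger 7.2.0, and the submitters' processing notes mm10 and Seurat 4.4.0. Whether intronic reads were counted is not given in the sources used here. The labels name a 10x 3′ version 2 kit, whose barcode set is smaller than the number of barcodes listed in the files.

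Kept cells had 1000 to 5000 detected genes, with less than 20% of UMIs mitochondrial, and the highest Scrublet scores (6.72% and 6.66% of cells) were removed as doublets. Cells were clustered jointly with scanpy 1.11.5 (3000 variable genes, 30 components, Leiden resolution 0.8), leaving out the rCap, interferon and adenosine list genes. An endothelial cluster took a vessel name when at least 50% of that vessel's 8 markers stood 1.5-fold above the other clusters, more than of any other vessel, with no list holding more of its 10 leading genes. Intervals are 95% exact Poisson (CPM), exact conditional binomial (ratios), Clopper-Pearson (shares) and Newcombe (share differences), and differences of ratios combine both intervals. Only the Poisson and ratio intervals were tested on simulated data. UMIs remove PCR copies, but not the spread between animals or preparations.

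The members and lists were chosen with earlier results of these data known. Named were all members in each class, list genes at least 2-fold apart in gCap-like or aCap-like ECs with an interval leaving out 0 and at least 50 UMIs, and the 5 genes most like Ada over log2(CPM + 1). Names matched GRCm38 gene models for 32158 of 32285 rows. Alternatives changed the cell limits, doublets, clustering, depth, scaling, free RNA and other cell types.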

Additional observations from a re-analysis of the deposited data

Results flagged for a closer look

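Some genes of the adenosine list went opposite ways in different vessels between control and B16-F10, each beyond counting error, with 1 library per group, so the difference was not tested. Nt5m, a mitochondrial nucleotidase, had a log2 ratio of -0.30 in gCap-like ECs and 0.40 in aCap-like ECs. Xdh, which oxidises hypoxanthine and xanthine, had -0.28 in aCap-like ECs, -0.81 in LEC-like ECs and 0.36 in artery-like ECs.

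Clusters of mixed markers entered no comparison above, and some members differed in them beyond counting error. Only higher ratios, with more than 3 UMIs in each library, were flagged, and these come first. The Fam162b-led cluster, with mural markers, had an Ada log2 ratio of 2.08 and an Entpd1 log2 ratio of 0.33. In the Hbb-bt-led cluster, with low UMI counts and erythroid genes, Ada gave 1.16 and Entpd1 0.50. Entpd1 gave 0.67 in the platelet-marked Itga2b-led cluster. The Scgb1a1-led cluster, with epithelial and fibroblast markers, gave 0.65 for Entpd1 and 0.64 for Slc29a1. In the other direction, Adk was lower in the platelet-marked Ppbp-led cluster, at -1.06 (-2.11 to -0.05) from 22 and 15 UMIs.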

How the results depend on the processing

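No paired analysis was possible because control and B16-F10 have 1 library each. Outside gCap-like and aCap-like ECs only Ada was recomputed under the alternatives. The vein-like, artery-like and LEC-like ratios of the other members, such as Nt5e and Entpd1, had no such check. Of 187 values under alternatives for 16 results, 165 stayed within the interval of the value reported (for counts within 1.5 times, for the list median within the medians of its genes' bounds), 20 moved beyond it and 2 reversed. Leaving out low-quality clusters (median under 4000 UMIs and under 2000 genes) could change no value, since these clusters lay outside the vessel classes. The unchanged values it gave are counted among the 165. The median of the list in gCap-like ECs lay on both sides of 0, from -0.0521 to 0.0964. The Ada log2 ratio in gCap-like ECs ran from 0.73 to 1.48 over 16 alternatives and was positive in each. It moved to 0.88 at doubled resolution, where the Lalba-led cluster is not counted as gCap-like, and to 0.73 without that cluster. Leaving that cluster out, counting the Esm1-led cluster as gCap-like and the bins of common score were chosen after seeing the data. Doubled resolution also gave 0.0121 for Adk, a reversal, 0.52 for Entpd1 and 0.31 for Slc29a1 in gCap-like ECs. With cells holding other markers left out, gCap-like ECs gave -0.0691 for Adk, -2.21 for Nt5e and 0.57 for Entpd1, aCap-like ECs -0.0277 for Adk and 0.43 for Entpd1, and vein-like ECs a reversed -0.00554 for Ada. Thinning to 2000 UMIs gave -0.0516 for Adk and -1.75 for Nt5e in gCap-like ECs. Entpd1 in gCap-like ECs was 0.60 with at least 500 genes, 0.60 without doublet removal, 0.59 with the lists kept in clustering and 0.69 centred on all genes. In aCap-like ECs Entpd1 was 1.46 with no upper gene limit and 1.61 with free RNA from barcodes up to 50 UMIs subtracted. Ada in aCap-like ECs was beyond counting error with at least 500 genes (1.21), no upper gene limit (1.29) and no doublet removal (1.20), and in artery-like ECs under 5 alternatives. Nt5e in gCap-like ECs was so only with other markers left out. The cause of these changes was not tested. At 1.5-fold 12 list genes were apart in place of 6, by the lower threshold. The difference in the share of gCap-like cells with an Ada UMI was 12.1 points unthinned and 5.73 points at 4000 UMIs, against 3.23 points at 2000, since more UMIs per cell are read. Values with under 20 UMIs, such as Ada in aCap-like controls, artery-like and LEC-like ECs, Nt5e outside veins and Adora2b in ECs, are limited by depth, and LEC-like Ada, Adora2b and aCap-like Nt5e gave no ratio to compare.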
